A study of Homo sapiens with 9 samples.

Results

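The peaks described here lie in the upstream part of 5′ untranslated regions (5′ UTRs), the stretch of mRNA between the cap and the start codon. A peak was a member if its centre fell in a 5′ UTR exon of an Ensembl canonical coding transcript on the same strand, more than 50 nt upstream of the start codon counted along the spliced transcript. By this rule 70058 of 2478204 merged peaks in 54 libraries were members (2.83%), and they lay on 6368 genes at 11691 sites, where a site is a run of overlapping peaks of 1 gene.

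In antibody-barcode eCLIP (ABC), the antibody against each RNA-binding protein (RBP) carries a DNA barcode that is joined to the RNA fragments its protein holds, so that several RBPs can be read from 1 tube. The study made 2 singleplex libraries of RBFOX2 from HEK293 cells, 2 of SLBP from K562 cells, and 10plex pools of DDX3, EIF3G, FAM120A, IGF2BP2, LIN28B, PRPF8, PUM2, RBFOX2, SF3B4 and ZC3H11A, with 3 pools from K562 cells and 2 from HEK293 cells. K562 is a human myelogenous leukaemia line and HEK293 a human embryonic kidney line, here in the derivative that the labels call HEK293T. By the paper's methods the cells were crosslinked with UV light before lysis. No cells carried a knockdown or a further treatment. Each replicate was treated as 1 sample. The labels do not say whether replicates came from separate cultures, so the spread between pools may be technical. Except for the comparison of the cell lines, p-values rank an RBP against choices of 1 RBP per pool. They do not measure the spread between replicates. The labels of the HEK293 pools name both lines. All 9 of 9 marker genes of K562 cells had peaks in each of the K562 pools, with 219, 297 and 267 peaks, and 0 of 9 in either HEK293 pool, whereas 9 of 9 and 8 of 9 HEK293 markers had peaks in the HEK293 pools (257 and 331 peaks) and 2 or 3 of 9 in the K562 pools (3, 5 and 6 peaks).

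Translation of most mRNAs begins when the small ribosomal subunit, brought to the cap by initiation factors, moves along the 5′ UTR until it meets a start codon. The eIF3 complex, of which EIF3G is a subunit with an RNA recognition motif, joins the small subunit to the mRNA, and DDX3, a DEAD-box helicase, unwinds structured 5′ UTRs during that movement. Peaks close to the start codon were left out by the rule, so that what is described is the path from the cap towards it.

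In 10plex ABC an RBP is set against the reads of the other 9 RBPs in its tube, added together as the complement control (CC). A peak was called CC-enriched where its P over the CC was below 0.001 and its reads, relative to the reads of the library, exceeded those of the CC by more than 8-fold. Members numbered 65031 in the 10plex libraries, of which 13134 (20.2%) had no CC value. The CC-enriched peaks of all RBPs numbered 262100, of which 9055 were members, and 7906 of those (87.3%) came from DDX3 or EIF3G.

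The 30 nt at the centre of some sites is shown in lower case, written in DNA letters from 5′ to 3′ on the strand of the transcript and read from GRCh38. For DDX3 and EIF3G these are the sites with the highest mean log2 fold among those CC-enriched in all pools of a cell line, except RPL8, whose site is named further on.
VPS26B (DDX3, K562, chr11:134224742-134224771, plus strand): accccacccggcaggcgcaggccacccaca
FBXO45 (DDX3, K562, chr3:196568851-196568880, plus strand): ggaggcgccggcggttggcactgacagggg
NQO2 (DDX3, HEK293, chr6:2999948-2999977, plus strand): cgcagcgctcccgccctccaggcgtcagcg
FRG1 (EIF3G, K562, chr4:189940928-189940957, plus strand): tctccgcgcccctgtgctgccccgactcac
JUN (EIF3G, K562, chr1:58783370-58783399, minus strand): ggaagtgagttcgcctgcggactccgagga
UBE2R2 (EIF3G, HEK293, chr9:33817534-33817563, plus strand): gagtgtgaggagaagggcccggcccggcct
CDK12 (EIF3G, HEK293, chr17:39461683-39461712, plus strand): cgcgtagtcctcgcagggccccagagctgg
The next 4 are sites of other RBPs chosen by the same rule. Capitals mark an ATG in the FAM120A site and intron bases in the LIN28B and PRPF8 sites.
ZC3H11A (FAM120A, K562, chr1:203801894-203801923, plus strand): ttactaactggagtaaATGtatacttacaa
ZNF280B (LIN28B, K562, chr22:22489447-22489476, minus strand): TTGTACTTAGgtggcagtttatataaagga
HDHD3 (PRPF8, HEK293, chr9:113376723-113376752, minus strand): gagccctggaggtggggagaaaagGTGAGC
NR1H2 (RBFOX2, K562, chr19:50376737-50376766, plus strand): ctccgcgagaggccgtccacgagacccccg
All of these windows lie in 5′ UTR exons of the named gene, apart from the last 10 bases of an intron that open the ZNF280B window and the first 6 of an intron that end the HDHD3 window.

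The 10plex libraries held between 938 and 206869 merged peaks (median 23268), with 17300 to 2881990 reads in them, and 22 to 5580 members. PUM2 had the fewest in each pool, with 22, 30 and 46 members in the K562 pools and 69 and 140 in the HEK293 pools, so that its shares are the least precise. Members carried few reads, with library medians of 3 to 8. They were spread widely, since 3923 of the 11215 sites of the 10plex libraries were found in 1 library and 273 in 25 or more.

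EIF3G had the largest part of its CC-enriched peaks in the upstream 5′ UTR, and DDX3 came second. Of the CC-enriched peaks of EIF3G, 34.3%, 39.9% and 49.2% were members in the K562 pools and 42.5% and 41.0% in the HEK293 pools, with a mean of 41.4% ± 5.36 (SD, n = 5). For DDX3 the shares were 30.0%, 29.9% and 39.0% in the K562 pools and 33.1% and 33.8% in the HEK293 pools, with a mean of 33.2% ± 3.72 (SD, n = 5). The shares of these RBPs did not overlap those of the other 8, which ran from 0.0568% to 2.92%.

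EIF3G was above the other 9 RBPs by 37.0 percentage points (exact permutation of the RBP labels within pools, two-sided, p = 1e-05, the smallest these permutations can give, adjusted p = 1e-04) and was highest in 5 of 5 pools. DDX3 was above them by 27.9 points (adjusted p = 0.0031 by the same exact permutation test). The other 9 include EIF3G for DDX3 and DDX3 for EIF3G, and each also counts in the CC of the other. No share of the other 8 RBPs passed the test, which could not call a low share. Even FAM120A, lowest in 5 of 5 pools, had p = 0.130 (exact permutation within pools), as DDX3 and EIF3G set the spread. Whether these 8 differ from each other is therefore not decided by it. The means of these 8 were 1.90% for PUM2, which binds Pumilio elements mostly in 3′ UTRs, 1.40% for LIN28B, known for binding let-7 precursors, 0.800% for the zinc-finger protein ZC3H11A and 0.711% for IGF2BP2. The splicing factors PRPF8, SF3B4 and RBFOX2 had 0.437%, 0.377% and 0.222%, and FAM120A had 0.137%. With no limit on enrichment the order at the top was the same, and the part of all merged peaks that were members was 17.8%, 20.9%, 26.5%, 22.1% and 18.9% for EIF3G, 16.9%, 16.7%, 18.1%, 14.8% and 13.1% for DDX3 (K562 pools first), and 1.57% to 4.69% in the other libraries.

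**Figure D1:**
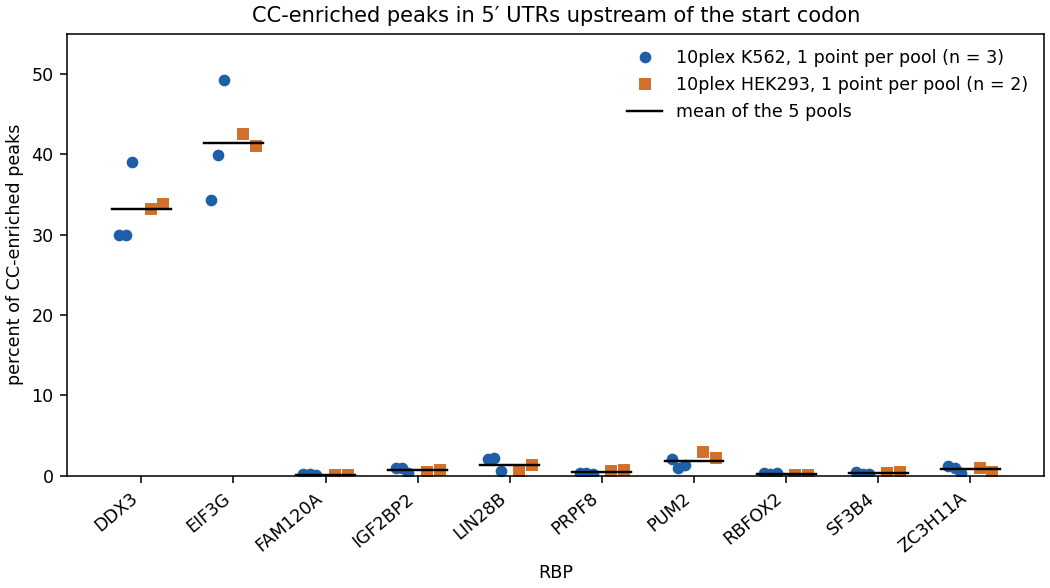
Share of the CC-enriched peaks of each RBP that were upstream 5′ UTR peaks (y axis, percent), by RBP (x axis), with 1 point per 10plex pool coloured by cell line and a bar at the mean. The 5 EIF3G points lie between 34.3% and 49.2% and the 5 DDX3 points between 29.9% and 39.0%, while no point of another RBP is above 2.92%.

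Taken from the side of the members, the percentage of upstream 5′ UTR peaks that were CC-enriched was highest for EIF3G and lowest for RBFOX2 and FAM120A. Of the EIF3G members with a CC value, 1193 of 1970 in K562 cells (60.6%, against 32.1% of all EIF3G peaks) and 1512 of 3389 in HEK293 cells (44.6%, against 19.7%) were CC-enriched. For DDX3 these numbers were 2355 of 5669 in K562 cells (41.5%, against 21.0% of all DDX3 peaks) and 2846 of 8596 in HEK293 cells (33.1%, against 12.3%). For both RBPs and in both cell lines, the percentage among members was above that among the RBP's peaks as a whole.

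By pool, 67.1%, 72.2% and 52.1% of EIF3G members in K562 cells and 51.5% and 38.9% in HEK293 cells were CC-enriched (mean 56.4% ± 13.4, SD, n = 5). This was the highest percentage in 5 of 5 pools and 45.2 points above the other 9 RBPs (adjusted p = 1e-04, exact permutation within pools). DDX3 had 54.7%, 53.6%, 29.7%, 37.7% and 28.5% in the same order (mean 40.8% ± 12.7, SD, n = 5), which was 27.9 points above the others (adjusted p = 0.020, exact permutation within pools). Without K562 replicate 1 the difference of DDX3 was 25.8 points and no longer passed (adjusted p = 0.059, exact permutation). The authors' P over the CC is a chi-squared P in 4 pools, and in K562 replicate 3 Fisher's exact P where numbers were small. With 1 rule for all pools, a choice made after the data were seen, the means were 45.9% for EIF3G and 33.7% for DDX3, and both stayed past the threshold. With enrichment taken over an external background, 25.5 points separated DDX3 from the others and 20.04 points EIF3G, and neither passed (adjusted p = 0.0545 and 0.117, exact permutation). Nearly every peak passed over that background in some K562 libraries. These were 98.8% of all DDX3 peaks in replicate 1, 99.1% of SF3B4 peaks in replicate 3 and 99.5% of PUM2 peaks in each replicate. Members can hardly stand out there, so this comparison decides little.

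**Figure D2:**
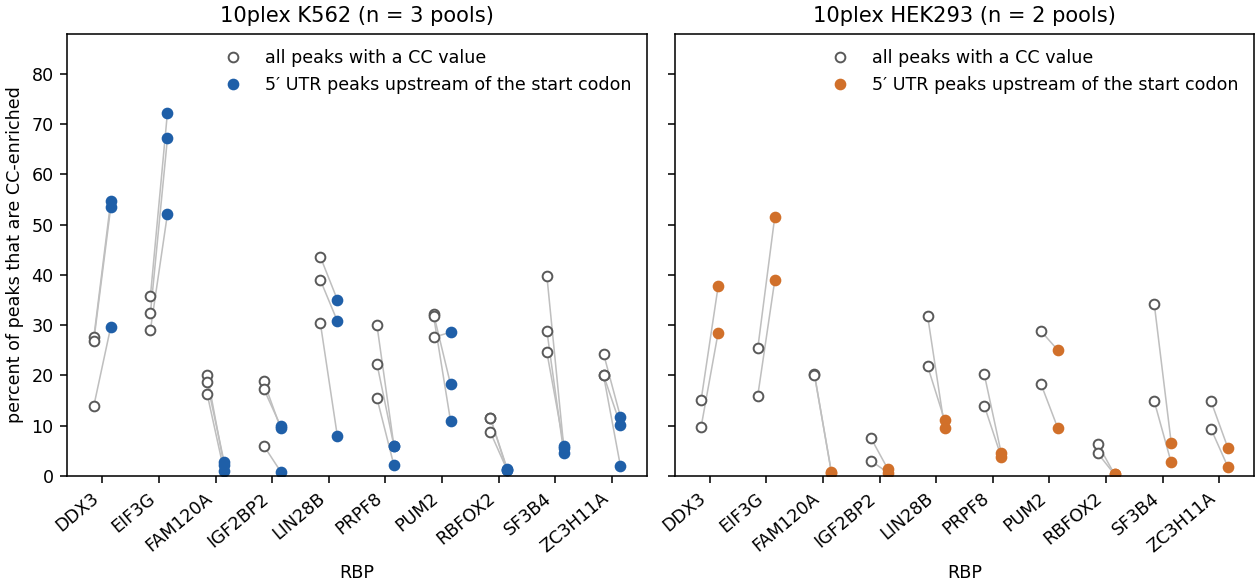
Percent of peaks that were CC-enriched (y axis), by RBP (x axis), in the 3 K562 pools (left) and the 2 HEK293 pools (right), with filled points for upstream 5′ UTR peaks and open points for all peaks with a CC value, joined by a line for each pool. The filled points lie above the open ones for DDX3 and EIF3G in each pool, and for EIF3G they run from 38.9% to 72.2%.

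For the other 8 RBPs, the percentage of CC-enriched peaks among members was below that among their peaks as a whole in both cell lines. LIN28B, the next after EIF3G and DDX3 in K562 cells, had 293 of 1172 members enriched there (25.0%, against 37.3% of all its peaks) and 100 of 965 in HEK293 cells (10.4%, against 26.8%). PUM2 had 13 of 82 (15.9%, against 31.0%) and 23 of 158 (14.6%, against 22.4%), again with K562 cells first. For ZC3H11A the numbers were 38 of 474 (8.02%, against 22.3%) and 26 of 763 (3.41%, against 11.6%), and for IGF2BP2 84 of 1826 (4.60%, against 12.0%) and 34 of 3833 (0.887%, against 4.80%). PUM2 and LIN28B thus came next to EIF3G and DDX3 in both cell lines. Single pools weigh on some of these percentages. For IGF2BP2 in K562 cells the pools had 9.46%, 9.89% and 0.853%, and the value was 9.73% without replicate 3 and 2.74% without replicate 2. Replicate 3 is the pool with the stricter P, and with 1 P rule for all pools these were 4.05%, 4.63% and 0.853%. For ZC3H11A it was 5.20% in K562 cells without replicate 2. In HEK293 cells the pools had 5.59% and 1.81% for ZC3H11A and 25.0% and 9.43% for PUM2.

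Among the splicing factors, PRPF8, the core protein of the U5 snRNP, had 110 of 2640 members enriched in K562 cells (4.17%, against 22.1% of all its peaks) and 191 of 4688 in HEK293 cells (4.07%, against 16.8%). SF3B4, a U2 snRNP protein that sits at branch points, had 57 of 1104 (5.16%, against 30.1%) and 57 of 1379 (4.13%, against 23.0%), the last from 6.60% and 2.66% in its pools. RBFOX2, which binds GCAUG and regulates alternative exons, had 33 of 2696 (1.22%, against 10.8%) and 13 of 4507 (0.288%, against 5.38%). FAM120A, an RNA-binding protein of the cytoplasm, had 54 of 2752 (1.96%, against 18.4%) and 23 of 3234 (0.711%, against 20.2%). RBFOX2 had the lowest percentage of all 10 RBPs in 4 of 5 pools, between 0.28% and 1.38%.

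The folds over the CC differed between RBPs in part as the calls did. The median log2 fold of EIF3G members was 3.55 in K562 cells and 2.88 in HEK293 cells, against 2.44 and 1.84 over all EIF3G peaks, and that of DDX3 members 2.98 and 2.67, against 2.17 and 1.55. FAM120A members had medians of -0.01 and -0.34, against 1.84 and 1.20 over all its peaks, and RBFOX2 members 0.59 and -0.42, against 1.46 and 0.93. PUM2 members had medians above those of its peaks as a whole, unlike its calls, with 1.88 and 1.63 against 1.70 and 1.48. At the median, a FAM120A peak in an upstream 5′ UTR therefore held about as many reads as the other barcodes or fewer, for the size of the libraries.

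Distance from the cap separated DDX3 from EIF3G. The median distance of DDX3 members, in nt of spliced transcript, was 103, 98 and 100 in the K562 pools and 118 and 125 in the HEK293 pools (mean 109 ± 11.99, SD, n = 5). EIF3G members had medians of 157, 137 and 134.5 in the K562 pools and 155 and 158 in the HEK293 pools (mean 148 ± 11.5, SD, n = 5). In every pool the DDX3 median was the shorter of the pair, and the ranges of the pair did not overlap.

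Against the other 9 RBPs, DDX3 members were 22.8 nt closer to the cap, a difference coded as -22.8 (adjusted p = 0.011, exact permutation within pools), and were closer in 5 of 5 pools. EIF3G members were 21.1 nt farther from it (adjusted p = 0.011, exact permutation), and farther in 5 of 5 pools. PUM2 had medians of 99, 114, 105, 88 and 143.5 nt, which differed from the others by -21.6 (adjusted p = 0.011, exact permutation), with 1 of 5 pools above the others, and did not pass without K562 replicate 1 (-18.5) or HEK293 replicate 1 (-15.96). The means of the other 7 RBPs lay between 121 nt for LIN28B and 141 nt for SF3B4, and none of them passed. Where the position was taken as a fraction of the room between the cap and the last base the rule allows, the difference of DDX3 was -0.0330 and that of EIF3G -0.0392, and neither passed (adjusted p = 0.243 for both, exact permutation). Both kept their direction when a pool was left out, but not always their call. Without K562 replicate 1 the differences were -21.1 nt for DDX3 and 18.8 nt for EIF3G (adjusted p = 0.056 for both, exact permutation), and without HEK293 replicate 1 that of EIF3G was 18.8 nt (adjusted p = 0.059, exact permutation).

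The 5′ UTRs that carried the members differed in length as well. The mean over pools of the median length was 306 nt ± 28.7 (SD, n = 5) for DDX3 and 385 nt ± 23.5 for EIF3G, and between 302 and 366 nt for the other 8. All of these exceeded the median of 170 nt over the 15945 canonical transcripts with more than 50 nt of 5′ UTR, and the 6370 with a peak in any library had a median of 234 nt. Within 5′ UTRs of 100 to 300 nt, the difference in median cap distance was -3.47 nt for DDX3 and 5.09 nt for EIF3G, and both lost their calls. How far the lengths account for the distances was not tested beyond these values.

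**Figure D3:**
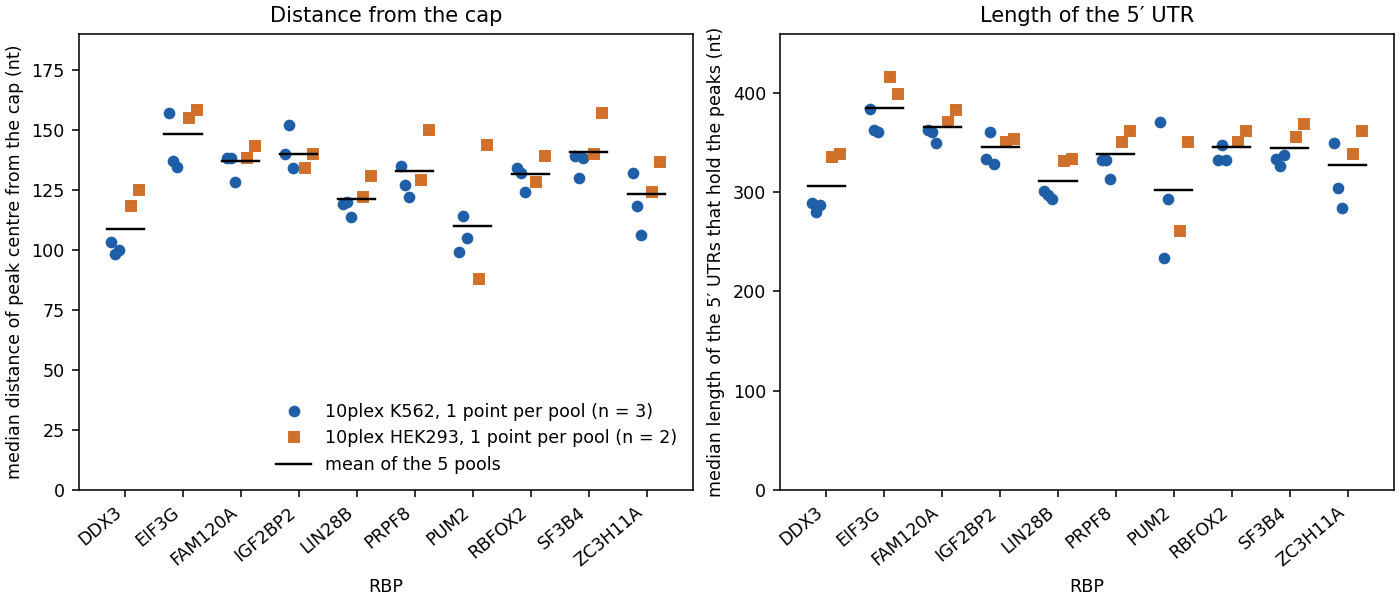
Median distance of upstream 5′ UTR peaks from the cap (nt, left) and median length of the 5′ UTRs that hold them (nt, right), by RBP, with 1 point per 10plex pool coloured by cell line and a bar at the mean. DDX3 points lie between 98 and 125 nt from the cap and EIF3G points between 134.5 and 158 nt, and the lengths average 306 and 385 nt.

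Among CC-enriched members, the medians of DDX3 and EIF3G lay farther apart than among all their members. For DDX3 the quartiles of the cap distance of CC-enriched members were 52, 89 and 165 nt in K562 cells and 60, 115 and 220 nt in HEK293 cells. For EIF3G they were 91, 174 and 293 nt in K562 cells and 99, 206 and 351 nt in HEK293 cells. At 200 nt or more from the cap lay 42.6% and 51.2% of the CC-enriched EIF3G members (K562 and HEK293) and 18.3% and 28.8% of those of DDX3. The 5′ UTRs of these enriched members also differed in length, with medians of 440 and 519 nt for EIF3G and 271 and 344 nt for DDX3. Each of the 2 RBPs also counts in the CC of the other. How far either bears on the distances was not tested. Within 50 nt of the cap lay 18.7% ± 2.19 (SD, n = 5) of all DDX3 members and 13.02% ± 2.83 of all EIF3G members, beside 24.4% ± 11.4 for PUM2 and 19.5% for LIN28B. Against the CC-enriched members of the other 9 RBPs, which are few for most of them, the difference in median distance was -96.3 nt for DDX3 and 1.42 nt for EIF3G, and neither passed. Peak width limits such distances, and the members of DDX3 and EIF3G had median widths of 44 to 60 nt in the libraries.

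**Figure D4:**
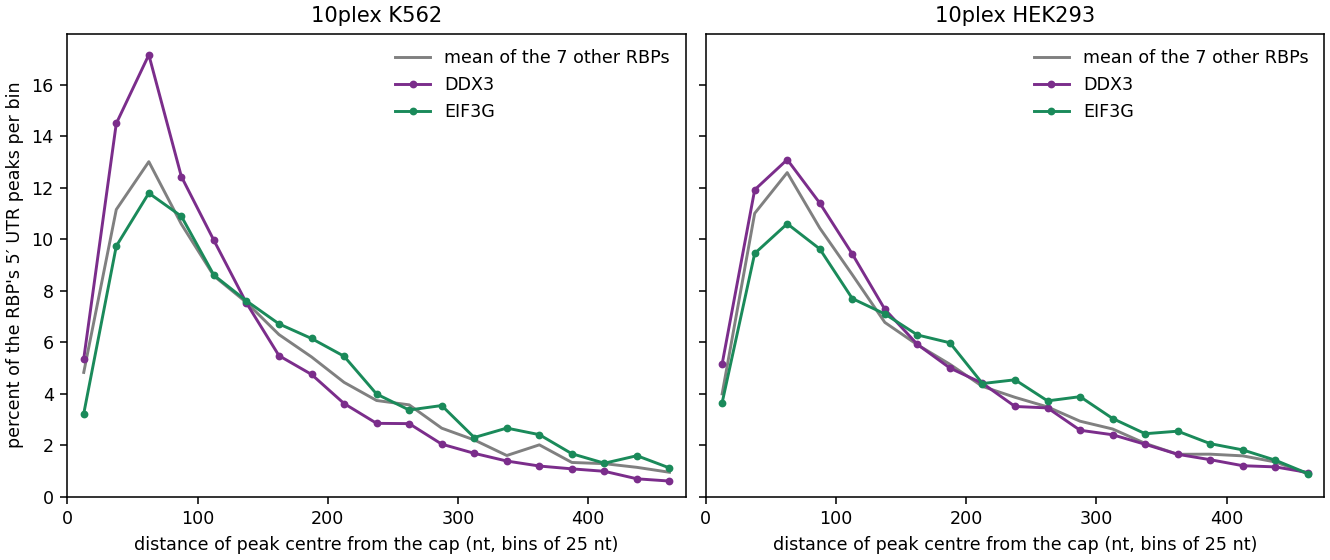
Percent of an RBP's upstream 5′ UTR peaks (y axis, mean over pools) in bins of 25 nt of distance from the cap (x axis, nt), in K562 (left) and HEK293 cells (right), for DDX3, EIF3G and the mean of 7 other RBPs in grey, with PUM2 left out for its few members. In the bin that starts 50 nt from the cap lay 17.2% of DDX3 peaks and 11.8% of EIF3G peaks in K562 cells, and 13.1% and 10.6% in HEK293 cells, where DDX3 was closer to the grey line.

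JUN, which encodes a subunit of the AP-1 transcription factor, had EIF3G peaks at more than 1 place of its 5′ UTR of 977 nt. They count as 1 site because overlapping peaks were joined over all libraries and RBPs. The EIF3G peak with the highest fold among those of the site lay 428, 662 and 433 nt from the cap in the K562 pools. The window shown above is that of the second. These peaks held 13, 53 and 15 EIF3G reads against 17, 59 and 16 reads of the CC, and as EIF3G held 1.77% to 2.24% of the reads of those pools, the log2 folds were 5.33, 5.64 and 5.35. The 3 folds were alike although the peaks were not at the same place. FRG1 had an EIF3G site whose peaks lay 71, 39 and 64 nt from the cap, with 5, 6 and 3 reads against 1, 4 and 5, and is an example of the low numbers on which many calls rest. In HEK293 cells CDK12, a kinase of elongating RNA polymerase II, had an EIF3G site with peaks 297 and 212 nt from the cap and 20 and 6 reads against 59 and 1, and UBE2R2, a ubiquitin-conjugating enzyme, one with peaks 305 and 389 nt from the cap in a 5′ UTR of 598 nt. The windows of both are from HEK293 replicate 2. There the reads were recovered as 6 for CDK12 and 5 for UBE2R2, at −log10 P of 29.1 and 27.9 over the external background. The 20 CDK12 reads of replicate 1 had a −log10 P of 30.9 at a higher fold over that background. The reads recovered in replicate 2 may therefore be too low, and the folds and rank of both sites are uncertain.

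The DDX3 sites with the highest folds were shallow. VPS26B, a subunit of the retromer that recycles membrane proteins, had 3, 3 and 6 DDX3 reads in the K562 pools against 3, 2 and 1 of the CC, in peaks 110, 61 and 86 nt from the cap. FBXO45, an F-box protein of ubiquitin ligases, had 10, 4 and 5 reads against 1, 6 and 4, in peaks 206, 194 and 232 nt from the cap. NQO2, a quinone reductase, had 8 and 11 reads against 3 and 1 in the HEK293 pools, in peaks 47 and 69 nt from the cap. RPL8, a protein of the large ribosomal subunit, had 12 and 24 DDX3 reads in the HEK293 pools and 0 of the CC in both. Apart from RPL8, each of these sites therefore rests on fewer than 12 DDX3 reads in a pool.

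Few genes were called in every pool of a cell line. In K562 cells 1383 genes had a CC-enriched DDX3 member in at least 1 pool and 159 in all 3 (11.5%), and in HEK293 cells 1704 in at least 1 and 544 in both (31.9%). For EIF3G these numbers were 566 and 83 (14.7%) in K562 cells and 832 and 233 (28.0%) in HEK293 cells. Of the DDX3 genes called in every pool, 87 were shared by the cell lines, which is 54.7% of those in K562 cells and 15.99% of those in HEK293 cells, and of the EIF3G genes 41, or 49.4% and 17.6%. LIN28B had 13 genes called in every pool of each cell line and 5 of them in common (38.5% of each list), and for the other 7 RBPs at most 16 genes were called in every pool of a cell line. The percentages of the 2 cell lines are not alike. A gene had to be called in 3 pools in K562 cells, 1 of them with the stricter P, and in 2 in HEK293 cells. The HEK293 libraries also held more merged peaks (median 37510, against 16975.5 in K562 cells). How far this bears on the shared genes was not tested. A gene's reads in a peak follow both how much of its RNA a cell holds and how much of that RNA was bound, and these cannot be told apart here.

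Genes of growth control and survival known for a long or structured 5′ UTR were looked at as a list chosen with earlier results of these data known. In those with a member the 5′ UTR ran from 131 nt (NRAS) to 1167 nt (IGF2), beside a median of 234 nt over transcripts with a peak. How far this length bears on the shares below was not tested. Of its 23 genes, 21 had a member in a 10plex library, 14 had a CC-enriched DDX3 member in at least 1 pool and 11 a CC-enriched EIF3G member, where among all 6237 genes with a member DDX3 had 2449 (39.3%) and EIF3G 1140 (18.3%). TGFB1, the secreted cytokine transforming growth factor beta, was CC-enriched for DDX3 in 5 of 5 pools at log2 folds of 3.91, 4.42 and 3.59 in K562 cells and 3.76 and 3.34 in HEK293 cells. ARF6, a small GTPase of the cell membrane, was so in 5 of 5 pools at 3.42, 3.45, 3.50, 3.37 and 3.77, and IGF1R, the receptor of insulin-like growth factor, at 4.82, 6.42, 3.46, 3.24 and 3.12. The values are those of the peak of a gene with the highest fold in each library. Of these 3 genes IGF1R varied most between pools and ARF6 least.

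For EIF3G, 3 genes of the list were CC-enriched in 5 of 5 pools. CDKN1B, the inhibitor p27 of cyclin-dependent kinases, had log2 folds of 6.14, 4.50, 5.12, 3.998 and 4.29, JUN had 5.33, 6.04, 5.35, 4.68 and 4.86, and ROCK1, a kinase of the actin cytoskeleton, had 4.81, 5.80, 5.03, 4.36 and 4.51. ROCK1 was CC-enriched for DDX3 in 1 pool. All 15 of these folds were above the limit of 8-fold, which is 3 on this scale.

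Genes with upstream open reading frames are translated through short frames that precede the start codon, and of 16 such genes, all with a 5′ UTR over 50 nt, 16 had a member, 6 were CC-enriched for DDX3 and 5 for EIF3G. AZIN1, the antizyme inhibitor of polyamine synthesis, was CC-enriched for EIF3G in each of the 4 libraries where it had a peak. Its log2 folds were 4.93 and 5.15 in K562 replicates 2 and 3 and 5.36 and 4.63 in HEK293 replicates 1 and 2. MDM2, the ubiquitin ligase of p53, was CC-enriched for DDX3 in both HEK293 pools (log2 folds of 3.25 and 3.23) and in K562 replicate 2 (4.42, from 3 reads). In K562 replicate 3, the pool with the stricter P, its fold of 3.04 was above the limit but its P did not pass. ATF4, the transcription factor of the integrated stress response, had DDX3 log2 folds of 0.69 to 2.91 and was CC-enriched in none.

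mRNAs with an iron-responsive element near the cap are held back by iron regulatory proteins when iron is scarce. Of 6 such genes, 5 had a 5′ UTR over 50 nt, 3 had a member, 1 was CC-enriched for DDX3 and 0 for EIF3G. FTL, the light chain of ferritin, was CC-enriched for DDX3 in both HEK293 pools at log2 folds of 3.57 and 3.24, and lay at 2.04 to 2.65 in K562 cells, short of the limit. FTH1, the heavy chain, had DDX3 log2 folds of 1.49 to 2.08. FTL passed in HEK293 cells alone, and the difference between the cell lines was not tested.

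Terminal oligopyrimidine mRNAs encode ribosomal proteins and translation factors behind a short pyrimidine-rich 5′ UTR, and only 10 of 15 had a 5′ UTR over 50 nt. Of these 8 had a member, 1 was CC-enriched for DDX3 and 2 for EIF3G. The mRNAs of the profiled RBPs themselves had a member in 8 of 9 with a long enough 5′ UTR, and 3 were CC-enriched for DDX3 and 1 for EIF3G. Over these 5 lists, the share of genes with a member that were CC-enriched for DDX3 was above that of all genes for growth control alone (66.7%). That list was also chosen for long or structured 5′ UTRs. For EIF3G it was above the 18.3% of all genes for growth control (52.4%), upstream open reading frames (31.2%) and terminal oligopyrimidine mRNAs (25.0%), the last from 2 of 8 genes.

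A small set of genes had members in nearly every library. PABPC1, the poly(A)-binding protein, and SET, a histone chaperone, had members in 50 of 50 10plex libraries, FTH1 in 49, and XPO1, the nuclear export receptor, ATP2A2, a calcium pump, PTP4A2 and CDK5R2 in 47. TPT1 and LAPTM4B followed with 46 and PCBP2, a poly(C)-binding protein, with 45. Presence was not enrichment, since FTH1, PTP4A2, CDK5R2 and TPT1 had no CC-enriched member for any RBP, whereas XPO1 and ATP2A2 were CC-enriched for EIF3G in 5 libraries and LAPTM4B for DDX3 in 4.

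PRPF8 members stood apart by their place at exon ends. Of PRPF8 members, 10.97%, 10.5% and 15.0% in the K562 pools and 14.3% and 18.0% in the HEK293 pools reached over an exon boundary into an intron of the canonical transcript (mean 13.8% ± 3.10, SD, n = 5). No library of another RBP was above 8.66%, so that PRPF8 was highest in 5 of 5 pools. It exceeded the other 9 RBPs by 9.28 points (exact permutation within pools, p = 1e-05, the smallest possible, adjusted p = 1e-04). Of the PRPF8 members over a boundary, 79.4% in K562 cells and 86.0% in HEK293 cells reached over the downstream end of the exon, which is the 5′ splice site. This side was the more common one for the other RBPs too, at 52.3% to 83.3% in 8 of them (PUM2 had few such peaks), so that it does not set PRPF8 apart. Among the CC-enriched PRPF8 members 37.3% and 46.6% lay over a boundary, beside 0% to 23.1% for the other 9 RBPs, several of which have few such members. An intron of the canonical transcript can be exon in another transcript of the gene, and unspliced RNA and such transcripts cannot be told apart from peaks.

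HDHD3, a phosphatase-like protein, is the PRPF8 site shown above whose last 6 bases are the start of an intron. It held 49 and 48 PRPF8 reads in the HEK293 pools against 10 and 0 of the CC, as recovered. In replicate 2 the deposited −log10 P over the external background was at its cap of 400. Such a value does not fix the number of reads, so the 48 and 0 are uncertain. In K562 cells LMBR1L, a membrane protein, had 28, 22 and 29 reads against 9, 10 and 8, at a mean log2 fold of 4.01 ± 0.07 (SD, n = 3), and HEATR3, an adaptor of ribosomal protein import, had 15, 12 and 31 reads against 6, 9 and 6. The windows of LMBR1L and HEATR3 held no intron base.

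**Figure D5:**
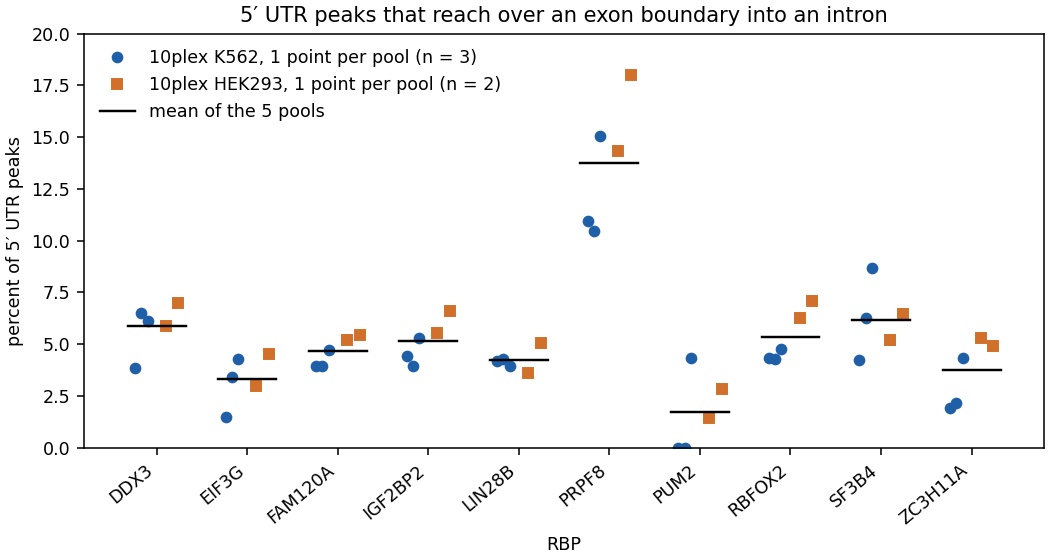
Percent of upstream 5′ UTR peaks that reached over an exon boundary into an intron of the canonical transcript (y axis), by RBP (x axis), with 1 point per 10plex pool coloured by cell line and a bar at the mean. PRPF8 lies between 10.5% and 18.0%, above every point of the other RBPs, the highest of which is 8.66%.

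The few CC-enriched members of FAM120A often lay where a different gene is annotated. In the 54 of K562 cells and the 23 of HEK293 cells, 27.8% and 56.5% of centres also fell, on the same strand, in the coding sequence or 3′ UTR of a coding transcript of another gene. For CC-enriched DDX3 members this was 0.637% and 0.422%, and for those of EIF3G 0.251% and 0.529%. All 4 FAM120A sites named by the rule lay in exon 2 of ZC3H11A, whose 5′ UTR is 1759 nt long, and in an exon of ZBED6, a transcription factor gene inside ZC3H11A. The site shown above held 26, 92 and 27 FAM120A reads in the K562 pools against 5, 7 and 6 of the CC (mean log2 fold 3.95 ± 0.49, SD, n = 3). Which of the overlapping transcripts these reads came from cannot be told apart.

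Most LIN28B sites were called in some pools and not in others, as 13 of 222 sites in K562 cells (5.86%) and 13 of 84 in HEK293 cells (15.5%) were called in all pools. These percentages have the same limits as those given above for genes, among them 3 pools against 2 and the stricter P of K562 replicate 3. In that pool 7.95% of LIN28B members were CC-enriched, against 35.1% and 30.8% in replicates 1 and 2. ZNF280B, a zinc-finger gene, had a site at the start of exon 4, 267 nt from the cap in a 5′ UTR of 331 nt, with 16, 14 and 12 LIN28B reads in the K562 pools against 3, 4 and 3 of the CC and with 4 and 11 against 3 and 3 in the HEK293 pools. It was the LIN28B site that the rule named in both cell lines. RPL39L, a paralog of ribosomal protein eL39, had 35, 48 and 17 reads in the K562 pools against 7, 5 and 15 in peaks 164, 203 and 161 nt from the cap, and LIMA1, an actin-binding protein, 6 and 3 in the HEK293 pools against 2 and 1. For IGF2BP2, which binds mRNAs mostly in 3′ UTRs, the rule named a site in PPP1R18, a targeting subunit of protein phosphatase, in all K562 pools, and in 1 HEK293 pool another site of PPP1R18 and one in MID1IP1. For SF3B4 it named BSCL2 and IMMP2L in 2 of 3 K562 pools and DGKH and TRIM13 in both HEK293 pools. PUM2 and ZC3H11A had no site enriched in more than 1 pool of a cell line, where ZDHHC14 and CEPT1 were named for PUM2 and ETFRF1 and MC1R for ZC3H11A in 1 HEK293 pool.

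The sequence that RBFOX2 is known to bind was rare in RBFOX2 members. The letters GCATG were looked for in the 30 nt at the centre of each peak, on the strand of the transcript, and were found in 1.29% of all 2997368 windows of the same length in the eligible 5′ UTRs. They were in 1.03%, 0.752% and 0.811% of RBFOX2 members in the K562 pools and 1.36% and 1.20% in the HEK293 pools (mean 1.03% ± 0.256, SD, n = 5). This was 0.551 points above the 0.479% of the other 9 RBPs (exact permutation within pools, p = 0.0003) but did not exceed the share of all windows except in 1 pool. The windows were not matched for composition, with a mean GC of 62.8% for all windows and 75.2% (K562) and 73.4% (HEK293) for RBFOX2 members. Of the CC-enriched RBFOX2 members, 1 of 33 in K562 cells and 2 of 13 in HEK293 cells held the letters, numbers too low for a comparison. In the singleplex libraries of RBFOX2, 1.50% and 1.16% of members held the letters. NR1H2, a nuclear receptor of oxysterols, was the RBFOX2 site called in all K562 pools, with 37, 35 and 52 reads against 17, 15 and 18 of the CC, and its window holds no GCATG.

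The PUM2 element TGTANATA, present in 0.06% of all windows, was in 0 of 98 PUM2 members in K562 cells and 0 of 209 in HEK293 cells, which are too few to tell a share near that of all windows from none.

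The windows of members were rich in G and C. Their mean GC content lay between 70.8% and 76.1% over the RBPs and cell lines, against 62.8% for all windows, and 1.45% to 10.4% of them held an ATG, against 16.2% of all windows. Among CC-enriched members, those of DDX3 (75.7% and 76.0% GC, in K562 and HEK293 cells) and EIF3G (73.1% and 72.0%) kept this composition, while those of FAM120A (54.7% and 43.6%), IGF2BP2 (56.2% and 54.9%) and PRPF8 (59.5% and 59.3%) lay below the mean of all windows. An ATG was in 6.11% and 6.93% of the CC-enriched DDX3 windows and in 3.81% and 5.20% of those of EIF3G, and in 24.7% and 25.4% of those of FAM120A. These shares were not tested.

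The cell lines overlapped in how much of the peaks lay in upstream 5′ UTRs. The mean over the 10 RBPs of the part of all merged peaks that were members was 5.38%, 5.52% and 6.60% in the K562 pools (5.83% ± 0.668, SD, n = 3) and 5.83% and 5.56% in the HEK293 pools. The HEK293 pools thus lie inside the range of the K562 pools. HEK293 minus K562 was -0.141 points (exact permutation test, two-sided, p = 1, where the smallest p this design allows is 0.1). Without K562 replicate 3 the difference was 0.243 points.

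In singleplex ABC there is no CC, and enrichment was taken over an external background at the same limits. RBFOX2 had 2674 and 2162 members in its replicates, or 0.788% and 1.12% of its merged peaks, at a median of 134 nt from the cap in both. Of these 95 and 112 were enriched (3.55% and 5.18%), below the 10.0% of all peaks of both libraries. SLBP, which binds the stem-loop at the 3′ end of histone mRNAs, had 151 and 40 members, of which 47 and 40 were enriched (31.1% and 100%), against 55.3% of all its peaks and, by replicate, 37.8% and 99.9%. MAP2K2, a kinase of the MAPK cascade, had the RBFOX2 site whose mean log2 fold over that background was highest (5.99 and 6.42, with 111 and 83 reads), followed by HTD2 (5.50 and 5.29). For SLBP the sites were EXOC3 (7.33 and 8.32, with 17 and 8 reads), of the exocyst, and RPLP1 (5.56 and 8.13, with 5 and 7 reads), of the large ribosomal subunit.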

How the data were processed

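Groups came from the RBP, cell line and replicate in the labels. The authors trimmed reads (cutadapt 2.8 in the submitters' notes), set aside repeats, aligned the rest to GRCh38 (STAR 2.7.6), removed PCR duplicates by molecular identifiers and called peaks per library with CLIPper. They deposited merged peaks, each with the −log10 of its P and its log2 fold over an external background. For 10plex pools they also deposited values over the CC, which were a chi-squared statistic and its P in 4 pools (peaks in repeats left out) and log2 folds with −log10 P values in K562 replicate 3.

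The reads of a peak came from its deposited name or the log2 fold, and CC reads were solved from the chi-squared statistic. Tried on K562 replicate 3, whose CC folds are known, this gave the right direction for 96.4% to 99.7% of peaks by RBP. Of the peaks there that were enriched by the recovered reads and a chi-squared P, 60.6% (DDX3) to 100% were enriched by the deposited P, which is Fisher's exact P where numbers are small, so calls in the other 4 pools are the more lenient. GENCODE release 44 was used for transcripts (release 35 by the authors). Peaks whose transcript is on chromosome 8 count in all values, but no sequence is printed there.

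Each RBP was compared with the other 9 by the 100000 choices of 1 RBP per pool, with Benjamini-Hochberg adjustment over the 10 RBPs and a threshold of 0.05. Scripts were tested on simulated data. Errors are SDs over pools.

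Named sites were, for each RBP and cell line, the 2 sites CC-enriched in all pools with the highest mean log2 fold, leaving out those within 30 nt of adapter-like sequence, or in all pools but 1 where none was. For singleplex ABC the external background took the place of the CC. The 10 genes with members in the most libraries and genes of the lists with a member were added. The members, lists and tests were chosen with earlier results of these data known.

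Alternatives were more than 100 nt upstream, any coding transcript, at least 10 reads, stricter limits (P below 1e-05, fold above 16), any fold above 1, the external background, other denominators, relative position, 1 peak per gene, 5′ UTRs of 100 to 300 nt, 1 cell line alone, no replicate block and leaving out each pool. One P rule in all pools, and every alternative for exon boundaries, GCATG, the comparison of the cell lines and percentages of members without each pool, were added after the data were seen. Python 3.11.15, numpy 2.4.6, pandas 2.3.3, scipy 1.17.1 and samtools 1.23.1 were used.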

Additional observations from a re-analysis of the deposited data

Results flagged for a closer look

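For SF3B4, the percent of upstream 5′ UTR peaks that reached over an exon boundary, minus that of the other 9 RBPs of the pool, lay above 0 in all 3 K562 pools (0.336 to 2.78 percentage points, mean 1.69) and below 0 in both HEK293 pools (-0.422 and -0.384, mean -0.403). The means differed by 2.09 points. This difference between the cell lines was not tested, and SF3B4 passed the test against the other 9 RBPs neither over all pools (difference 0.851, adjusted p = 0.911, exact permutation) nor in either cell line alone. In K562 cells 52.3% of the SF3B4 peaks over a boundary reached over the downstream end of the exon or both ends, and in HEK293 cells 66.4%. Of 60 groups of 5 pools, none had a value that stood far apart from the others.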

How the results depend on the processing

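Of the results that answer a comparison, 94 of 121 values under the alternatives kept their direction and their side of the threshold, 25 lost their call and 2 changed direction. In HEK293 cells alone, where 100 choices of RBP are too few for most calls to pass, the values were 28.1 (DDX3) and 37.4 (EIF3G) for the share of CC-enriched peaks, -14.9 nt and 24.0 nt for the cap distance, 23.4 and 36.9 for the percent CC-enriched and 11.1 for exon boundaries of PRPF8. In K562 cells alone, the cap distance of EIF3G (19.2) and the percent of DDX3 (30.9) lost their calls. The percent CC-enriched lost its call with stricter limits for DDX3 (6.80) and over the external background for DDX3 (25.5) and EIF3G (20.04). Over that background nearly every peak passed in some K562 libraries, among them libraries of DDX3, PUM2, SF3B4 and ZC3H11A, which limits every value taken over it.

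The cap distance depended most on the choices, and the cause was not tested. EIF3G lost its call more than 100 nt upstream (16.8), with any transcript (0.60), with CC-enriched peaks alone (1.42), with 1 peak per gene (12.4) and in 5′ UTRs of 100 to 300 nt (5.09), and changed direction by relative position (-0.0392). DDX3 lost it with at least 10 reads (-25.0), by relative position (-0.0330), with CC-enriched peaks alone (-96.3) and in 5′ UTRs of 100 to 300 nt (-3.47).

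RBPs without a call changed direction in some settings, as differences in cap distance: more than 100 nt upstream PRPF8 -5.87, RBFOX2 -1.09 and ZC3H11A 0.133, with any transcript LIN28B 10.0, with at least 10 reads IGF2BP2 -15.2, PRPF8 -1.46, SF3B4 -10.7, ZC3H11A 2.47 and PUM2 105, which had passed, by relative position FAM120A -0.0145, LIN28B 0.0357, PRPF8 -0.0016, RBFOX2 -0.0095 and ZC3H11A 0.0048, with CC-enriched peaks alone PRPF8 -29.1, RBFOX2 -34.4 and SF3B4 -0.885, with 1 peak per gene ZC3H11A 0.933, in 5′ UTRs of 100 to 300 nt IGF2BP2 -0.133, and in HEK293 cells alone RBFOX2 -1.58. In the percent CC-enriched these were PUM2 with more than 100 nt (-0.839), any transcript (-1.26), any fold above 1 (-0.116) and 1 P rule (-0.784), LIN28B in HEK293 cells alone (-1.93) and, over the external background, LIN28B (-13.1), SF3B4 (3.93) and ZC3H11A (14.6). For exon boundaries they were RBFOX2 (0.546) and SF3B4 (-0.403) in HEK293 cells alone.

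Leaving out each pool in turn gave differences of 26.6 to 28.7 (DDX3) and 35.2 to 38.8 (EIF3G) in the share of CC-enriched peaks, -25.8 to -20.5 nt and 18.8 to 23.5 nt in cap distance, 25.8 to 29.8 in the percent of DDX3, 8.50 to 9.95 for PRPF8 at exon boundaries and 0.505 to 0.627 for GCATG in RBFOX2. The cap distance of DDX3 lost its call without K562 replicate 1 (-21.1) and that of EIF3G without K562 replicate 1 or HEK293 replicate 1 (18.8 each), the percent of DDX3 lost it without K562 replicate 1 (25.8), exon boundaries of RBFOX2 ran from -0.262 to 0.313, and HEK293 minus K562 from -0.369 to 0.243. The pool is the replicate block of the main test. With no replicate block the differences were the same by construction (27.9 and 37.0 in the share of DDX3 and EIF3G) and no call of DDX3, EIF3G or PRPF8 changed. Depth limits the rest, as library medians of 3 to 8 reads per member leave few reads for each call.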
